A study of Homo sapiens with 6 samples.

Results

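The comparison described here set 2 of 6 arrays side by side, both from hypoxic H460 cells treated with BAY 87-2243: the array with 100 nmol/L of the compound and the array titled 1 nM. They were chosen by their labels alone, and the log2 difference of intensities (100 nmol/L minus the array titled 1 nM) was taken for each of 18417 genes. The question was which transcripts were lower or higher at 100 nmol/L than at the smaller dose, and which stood at the same level on both arrays. H460 is an established human line of large cell lung carcinoma. All 6 cultures were H460 cells incubated for 16 h in medium with little serum, 2 in normoxia (with the solvent DMSO, or with 100 nmol/L of the compound) and 4 in hypoxia at 1% pO2 (with DMSO, with 100 nmol/L, and at the lower doses of 1 and 10 nmol/L). The lower doses are in doubt. The array titled 1 nM carries 10 nM in its source name, and the array titled 10 nM carries 1 nM, so the labels do not settle which of the pair received which dose, and both are called here by their titles. Each condition is 1 array of total RNA, so the differences below could not be checked against replicates and carry no p-value.

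Cells adapt to low oxygen through the hypoxia-inducible factors (HIF), transcription factors with an oxygen-labile alpha subunit (HIF1A) and a stable beta subunit. In oxygen, prolyl hydroxylases (the EGLN enzymes) mark the alpha subunit for binding by the VHL protein and for degradation. In hypoxia it is spared, enters the nucleus and activates genes for glycolysis, vessel growth, matrix modification and lipid storage, through sites with the core letters ACGTG or GCGTG. BAY 87-2243 was found as an inhibitor of HIF activity and blocks complex I of the mitochondrial respiratory chain.

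Epithelial marker transcripts (keratins, EPCAM and CDH1, 6 measured) summed to intensities of 29462 on the array titled 1 nM and 30782 at 100 nmol/L, nearly all of it from keratins. EPCAM was at 73.5 and 69.3 and CDH1 at 38.4 and 43.1, below the median probe set of either array. The 11 measured markers of blood, endothelial and fibroblast cells summed to 1351 and 1332, within the range of 1242 to 1461 over the 6 arrays. The array medians were 139.8 for the array titled 1 nM and 130.2 at 100 nmol/L, and the lower quartiles 41.7 and 38.0. The array titled 1 nM and that of hypoxia with DMSO (lower quartile 41.2) stood above the other 4 in this respect (36.7 to 38.4) and below them at the upper quartile (605.1 and 606.6 against 630.3 to 673.8). The median log2 difference was 0.07 over 11307 brighter genes, those above the median probe set, and -0.19 over 7110 dimmer genes. The part of the array distributions in the differences of dim genes was not tested.

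At 100 nmol/L, 46 genes were at least 2-fold lower than on the array titled 1 nM (0.25% of all genes) and 21 were at least 2-fold higher (0.114%). In this pair 95% of brighter genes lay within 1.38-fold, and among dimmer genes 95% lay within 1.58-fold. Lower genes made up 68.7% of those past 2-fold, against 56.1% after quantile normalization and 49.2% when each array was centred on its median, which adds 0.10 to every log2 difference. Of the 46 lower genes 18 were brighter genes. Of these 18, 14 were induced at least 2-fold by hypoxia, from normoxia to hypoxia with DMSO, a pair of arrays that the comparison did not use, and 10 were on the list of HIF targets. Among all 11307 brighter genes 239 were induced that far and 68 were on the list. The list was drawn up with earlier results of these data known.

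**Figure D1:**
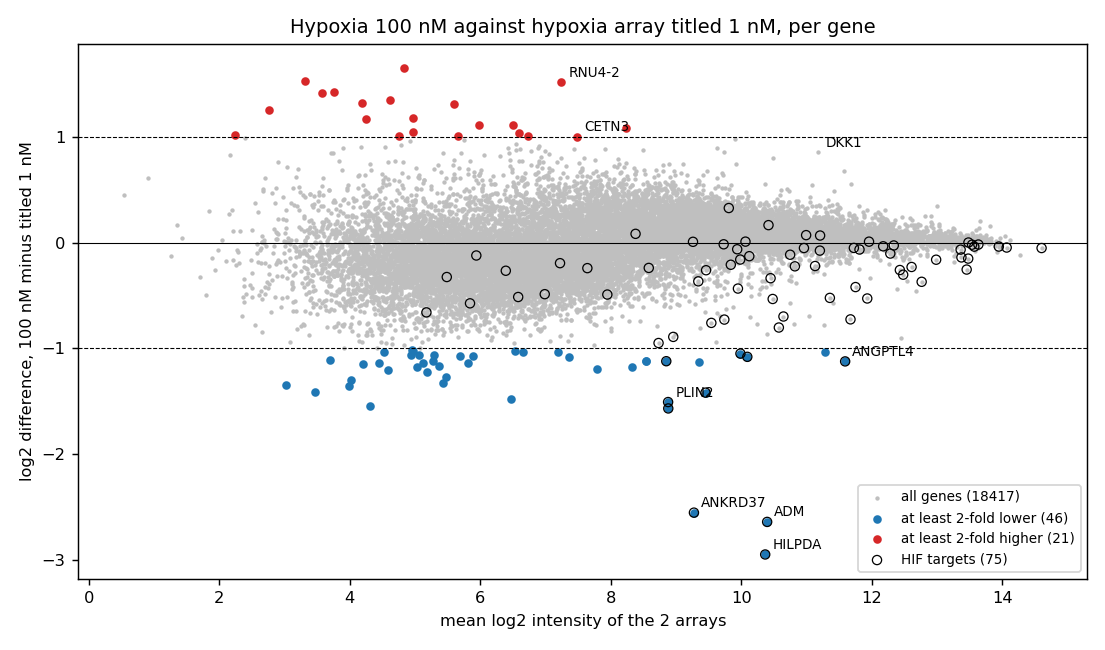
Log2 difference in intensity (100 nmol/L minus the array titled 1 nM, vertical axis) against the mean log2 intensity of the 2 arrays (horizontal axis), 1 point a gene. Dashed lines mark 2-fold, blue and red points lie past them (46 and 21 genes), and open circles are the 75 measured HIF targets. HILPDA, ADM and ANKRD37 stand apart at the bottom, with differences from -2.95 to -2.55, while most other genes past 2-fold lie at the dim end.

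The transcripts furthest below the array titled 1 nM were those of HILPDA, a lipid droplet protein that inhibits triglyceride breakdown, ADM, which encodes the vasodilator adrenomedullin, and ANKRD37, an ankyrin repeat protein. HILPDA had an intensity of 1127 in normoxia with DMSO and 264 in normoxia with 100 nmol/L. In hypoxia it was 6976 with DMSO, 7451 on the array titled 10 nM, 3665 on the array titled 1 nM and 474 at 100 nmol/L. On the array titled 1 nM HILPDA was thus still above both normoxic arrays, and only at 100 nmol/L did it lie below normoxia with DMSO. The step between the 2 arrays compared was 7.73-fold (log2 difference -2.95), and 23.9% of the log2 decrease from hypoxic DMSO to 100 nmol/L had been reached on the array titled 1 nM.

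ADM had intensities of 479 and 351 in normoxia (DMSO and 100 nmol/L), and in hypoxia 5686 with DMSO, 5816 on the array titled 10 nM, 3363 on the array titled 1 nM and 539 at 100 nmol/L. Its step was 6.24-fold (log2 difference -2.64), with 22.3% of the decrease reached on the array titled 1 nM. ANKRD37 was at 216 and 137 in normoxia, and at 2995, 2673, 1499 and 255 on the hypoxic arrays in the same order. Its step was 5.87-fold (-2.55), with 28.1% of the decrease reached. All 3 genes were high in hypoxia with DMSO and on the array titled 10 nM and lower on the array titled 1 nM. Against normoxia with DMSO, the log2 difference at 100 nmol/L was 0.17 for ADM, 0.24 for ANKRD37 and -1.25 for HILPDA. These were the only genes lower by more than 3-fold.

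The other 11 hypoxia-induced genes past 2-fold had reached between 32.2% (HES1) and 59.0% (NRN1) of their log2 decrease on the array titled 1 nM. BHLHE41, a transcriptional repressor of the circadian system, was at 330 and 284 in normoxia and at 2195, 2146, 811 and 274 on the hypoxic arrays (DMSO, titled 10 nM, titled 1 nM, 100 nmol/L), a log2 difference of -1.57 with 47.8% of the decrease reached. PLIN2, which coats lipid droplets, was at 368 and 210 in normoxia and at 2367, 2412, 793 and 279 in hypoxia (-1.51, 51.1% reached). EFNA1, an ephrin ligand, was at 419 and 242 in normoxia and at 2427, 2641, 1144 and 428 in hypoxia (-1.42). In BHLHE41, PLIN2 and EFNA1 the 100 nmol/L level was close to or below that of normoxia with DMSO, while the array titled 1 nM was above it.

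ANGPTL4, a secreted inhibitor of lipoprotein lipase, was at 911 and 511 in normoxia, and at 6763, 6615, 4548 and 2088 on the hypoxic arrays in that order. Its log2 difference was -1.12 with 33.8% of the decrease reached, and at 100 nmol/L it remained above both normoxic arrays. PDGFA, a platelet-derived growth factor chain, was at 542 and 597 in normoxia and at 4201, 4093, 1585 and 750 in hypoxia (-1.08). INSIG2, which retains the sterol sensor in the endoplasmic reticulum, was at 322 and 150 in normoxia and at 1503, 1494, 680 and 313 in hypoxia (-1.12). Of these 14 genes, ANGPTL4 stood furthest above normoxia with DMSO at 100 nmol/L apart from HES1.

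The hypoxia-induced genes outside the HIF list were SPRY1, an inhibitor of growth factor signalling to ERK (log2 difference -1.20), NRN1, which encodes neuritin (-1.13), PPP2R5B, a regulatory subunit of protein phosphatase 2A (-1.12), and HES1, a repressor downstream of Notch (-1.03). HES1 and the ephrin EFNA3 (-1.05, on the HIF list) lay outside the rule for named genes and were chosen after their values were seen. HES1 was at 347 in normoxia with DMSO and 1247 in normoxia with 100 nmol/L, and at 5000, 5240, 3558 and 1738 on the hypoxic arrays. HES1 and PDGFA were the members of the 14 whose normoxic level was higher with the compound than with DMSO. In hypoxia, HES1 at 100 nmol/L stayed 2.32 above normoxia with DMSO on the log2 scale. NRN1 was at 597 and 166 in normoxia and at 2970, 2636, 966 and 442 in hypoxia.

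A second set of hypoxia-induced genes differed little between the 2 arrays, with the array titled 1 nM already low. Against hypoxia with DMSO, 66 genes were at least 2-fold lower on the array titled 1 nM (0.358% of all genes) and 41 at least 2-fold higher (0.223%). That comparison shares the array titled 1 nM with the one described here, so a low value there raises one difference and lowers the other, and the values are given side by side as levels. TMEM45A, a transmembrane protein gene, was at 196 and 96.4 in normoxia, and in hypoxia at 829 with DMSO, 861 on the array titled 10 nM, 217 on the array titled 1 nM and 183 at 100 nmol/L. ROPN1L, a ropporin-like protein of sperm flagella, was at 172 and 124 in normoxia and at 542, 569, 168 and 173 in hypoxia. Both were within 1.5-fold of the solvent-treated normoxic level on the 2 arrays alike, with log2 differences between these arrays of -0.24 and 0.04.

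TCP11L2 was at 339 and 207 in normoxia and at 1603, 1685, 541 and 408 on the hypoxic arrays, a log2 difference of -0.41. LRP1, an endocytic lipoprotein receptor, was at 200 and 222 in normoxia and at 787, 735, 292 and 263 in hypoxia (-0.15). P4HA2, a collagen prolyl 4-hydroxylase subunit, was at 981 and 824 in normoxia and at 3625, 3285, 1568 and 1243 in hypoxia (-0.34). These 3 genes had 79.4%, 90.5% and 78.3% of their log2 decrease on the array titled 1 nM, and all 3 were above normoxia with DMSO on both arrays. UPK1A, a uroplakin of the bladder surface, was the gene furthest below hypoxic DMSO on the array titled 1 nM under the naming rule (602 against 138), and reached 84.8 at 100 nmol/L.

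**Figure D2:**
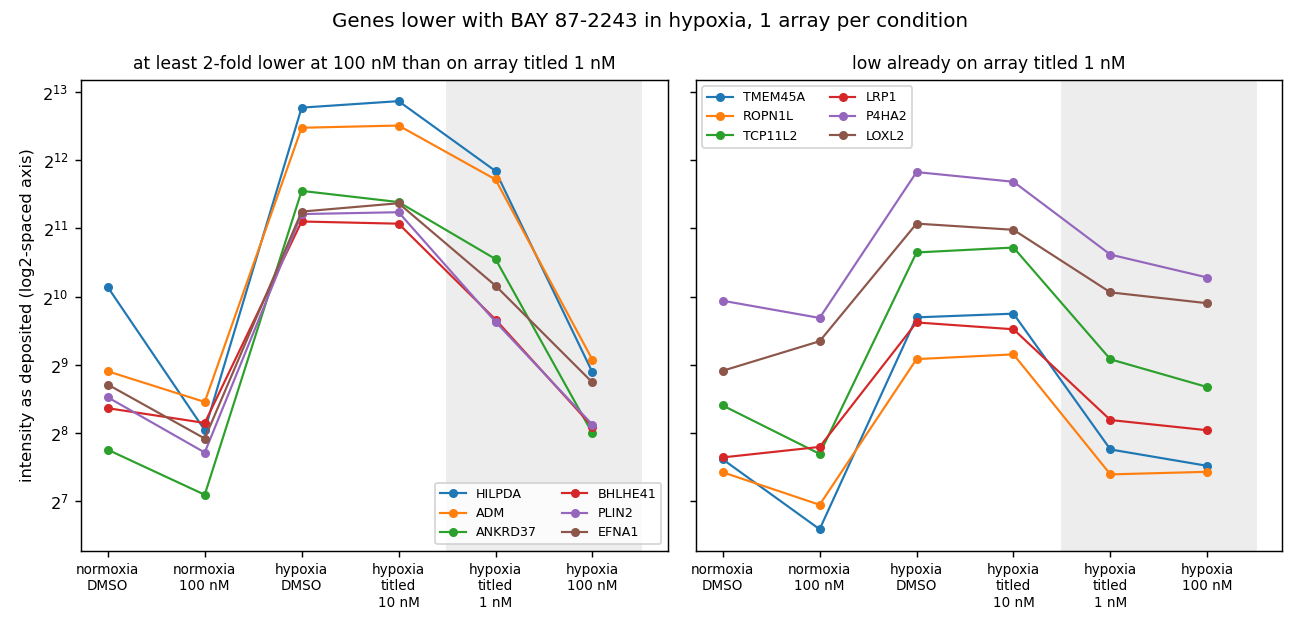
Deposited intensity (log2-spaced vertical axis) of 12 genes on the 6 arrays, 1 array per condition, with the 2 arrays compared shaded. Lines join the values of a gene and imply no order of dose. On the array titled 1 nM the 6 genes at left are still well above the normoxic DMSO array (HILPDA 3665, ADM 3363) and low at 100 nmol/L (474 and 539), while the 6 at right differ by at most 0.41 on the log2 scale between the shaded arrays (TCP11L2).

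Sequence upstream of a few of these genes is shown because the HIF core letters can be read in it. The 250 bases before the RefSeq start (GRCh38.p14) are given 5′ to 3′ on the gene's strand, in lower case with each ACGTG or GCGTG, on either strand, in capitals. A CACGTG reads as ACGTG on both strands, and its letters are counted once for each.
ADM, chr11:10304823-10305072, plus strand: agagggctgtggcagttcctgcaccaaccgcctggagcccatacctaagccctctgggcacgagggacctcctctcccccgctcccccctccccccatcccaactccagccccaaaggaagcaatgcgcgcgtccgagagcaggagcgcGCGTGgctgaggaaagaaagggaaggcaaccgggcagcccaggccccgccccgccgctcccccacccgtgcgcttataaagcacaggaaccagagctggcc
ANKRD37, chr4:185396591-185396840, plus strand: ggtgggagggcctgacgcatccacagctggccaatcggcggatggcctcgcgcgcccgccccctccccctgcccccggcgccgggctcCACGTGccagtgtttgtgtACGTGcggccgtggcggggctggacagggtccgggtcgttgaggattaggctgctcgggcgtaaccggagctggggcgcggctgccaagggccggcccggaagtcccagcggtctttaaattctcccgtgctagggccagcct
BHLHE41, chr12:26125038-26125287, minus strand: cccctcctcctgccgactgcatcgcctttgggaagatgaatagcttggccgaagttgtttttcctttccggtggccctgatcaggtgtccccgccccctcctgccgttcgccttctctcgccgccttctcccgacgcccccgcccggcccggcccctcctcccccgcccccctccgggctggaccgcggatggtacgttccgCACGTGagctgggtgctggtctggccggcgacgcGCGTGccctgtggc
TMEM45A, chr3:100492369-100492618, plus strand: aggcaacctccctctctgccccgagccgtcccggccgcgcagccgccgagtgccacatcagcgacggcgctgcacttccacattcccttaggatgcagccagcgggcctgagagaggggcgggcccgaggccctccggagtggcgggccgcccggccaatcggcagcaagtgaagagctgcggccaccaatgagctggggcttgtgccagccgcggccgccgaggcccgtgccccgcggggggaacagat
ROPN1L, chr5:10441629-10441878, plus strand: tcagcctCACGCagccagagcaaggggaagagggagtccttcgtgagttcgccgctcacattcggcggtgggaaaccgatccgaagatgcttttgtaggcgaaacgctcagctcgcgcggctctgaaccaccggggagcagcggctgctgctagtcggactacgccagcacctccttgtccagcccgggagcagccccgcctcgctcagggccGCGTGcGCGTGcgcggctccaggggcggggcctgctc
The window of ADM held 1 match, those of ANKRD37 and BHLHE41 held 3 each and that of ROPN1L held 3, while that of TMEM45A held 0. Of the 14 largest decreases under the naming rule, 12 were in the promoter table and 9 of them (75%) held a match. The genes already low were those of the 10 lowest on the array titled 1 nM that differed by less than 1.5-fold from 100 nmol/L. Of these, 5 were in the table and 2 (40%) held a match. BHLHE41, PLIN2 and NRN1 (3, 4 and 0 matches) belonged to both named sets and were counted only among the decreases, so the 2 shares depend on that assignment. Windows of the same length held a match in 51.1% of 14238 measured genes and in 43.2% of all 35114 promoters in the table. A match is a description of letters in this window.

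Of 79 listed HIF targets 75 were measured, and 10 of these were at least 2-fold lower at 100 nmol/L than on the array titled 1 nM, 0 were higher, and 66 lay below 0. Their median log2 difference was -0.24, against 0.01 over all genes (-0.28 after quantile normalization and -0.14 with centring). Over all 18417 genes 46 (0.25%) were at least 2-fold lower, 21 (0.114%) higher, and 8966 lay below 0. The decreases were uneven among the roles of the HIF targets, and so was their induction by hypoxia with DMSO. Median log2 differences from normoxia were 1.11 for secreted and surface proteins and 1.26 for lipid droplet, mitophagy and stress genes. They were 1.01 for feedback and chromatin regulators, 0.52 for glucose uptake, glycolysis and lactate genes and 1.41 for collagen-modifying enzymes. Of 17 secreted and surface proteins 5 were 2-fold lower (ADM, EFNA1, EFNA3, ANGPTL4 and PDGFA), with a median of -0.57, the same as their median from hypoxic DMSO to the array titled 1 nM. VEGFA, the vascular endothelial growth factor, was at 1099 and 664 on the 2 arrays (-0.73), and below normoxia with DMSO (1342) on both.

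Of 14 targets in lipid droplets, mitophagy and stress, 4 were 2-fold lower (HILPDA, ANKRD37, PLIN2 and INSIG2), and the median was -0.33. The mitophagy receptors BNIP3 and BNIP3L, named after their values were seen, differed little, from 8563 to 7662 (-0.16) and from 6025 to 5038 (-0.26). Of 14 feedback and chromatin regulators 1, BHLHE41, was 2-fold lower and the median was -0.23. MXI1, a MYC antagonist, was at 968 on the array titled 1 nM and 572 at 100 nmol/L (-0.76). The prolyl hydroxylase EGLN3 was at 1716 and 1187 (-0.53), and EGLN1 at 1787 and 1652 (-0.11).

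None of the 23 measured genes of glucose uptake, glycolysis and lactate was 2-fold lower. Their median was -0.05, with 19 of the 23 below 0. After quantile normalization it was -0.09, with 22 below 0, and with centring it was 0.05, against 0.11 over all genes. All 23 were brighter genes. The 4 largest differences were those of PFKFB4, a kinase that sets fructose 2,6-bisphosphate, at 590 and 306 (-0.95), the enolase ENO2 at 2038 and 1256 (-0.70), the aldolase ALDOC at 4679 and 3246 (-0.53) and HK2, the inducible hexokinase, at 3139 and 2186 (-0.52). The bulk enzymes LDHA, PGK1 and GAPDH, named after their values were seen, differed by -0.04, -0.02 and -0.05, and their intensities on the array titled 1 nM, 15956, 12760 and 25254, lay near the top of the measured range. From normoxia to hypoxia with DMSO they had differed by only 0.05, 0.18 and 0.01. None of the 7 collagen-modifying enzymes was 2-fold lower either (median -0.16), against a median of -0.71 from hypoxic DMSO to the array titled 1 nM. The earlier step also had the larger median among glycolysis genes (-0.21), lipid droplet, mitophagy and stress genes (-0.68), feedback regulators (-0.58) and the HIF targets as a whole (-0.49). LOXL2, a lysyl oxidase, was at 2148 with DMSO, 1068 on the array titled 1 nM and 957 at 100 nmol/L.

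Among the HIF subunits and their regulators 0 of 6 measured genes passed 2-fold. HIF1A itself was at 4563 on the array titled 1 nM and 4972 at 100 nmol/L, a log2 difference of 0.12, and lay between 3872 and 5105 over all 6 arrays. VHL differed by 0.32 (264 and 330) and HIF1AN, the asparagine hydroxylase that restrains HIF, by 0.44 (310 and 420). CA9 and EGLN2 were not analysed here, since they had no probe set of their own symbol alone.

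**Figure D3:**
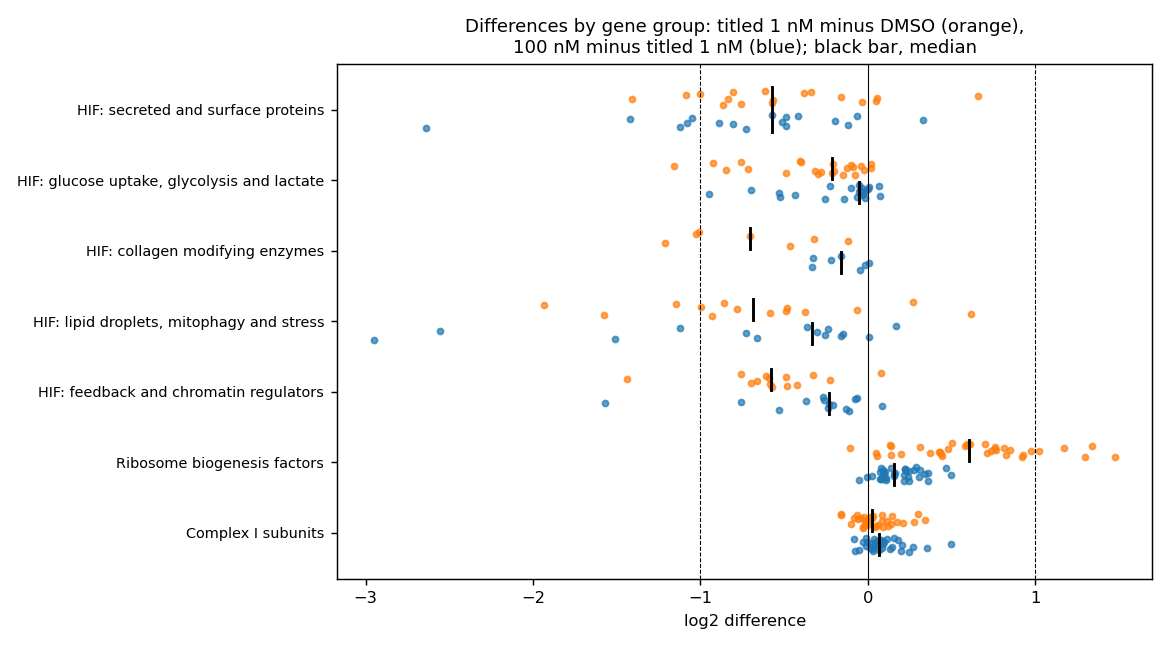
Log2 differences (horizontal axis) of the measured genes in 7 lists, from hypoxic DMSO to the array titled 1 nM (orange) and from there to 100 nmol/L (blue), with the median of each as a black bar and dashed lines at 2-fold. Both series use the array titled 1 nM. The secreted and surface proteins have the same median in both steps (-0.57), while the collagen-modifying enzymes have -0.71 and then -0.16.

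The hypoxia difference, from the DMSO pair that shares no array with this comparison, was set beside the dose difference. Of 307 genes at least 2-fold higher in hypoxia than in normoxia (1.67% of all genes), 253 were lower at 100 nmol/L than on the array titled 1 nM, 14 of them (4.56%) by at least 2-fold and 0 higher by 2-fold, with a median of -0.30. Of 676 genes at least 2-fold lower in hypoxia (3.67%), 641 were higher at 100 nmol/L, 3 by at least 2-fold, with a median of 0.28. After quantile normalization these 2 medians were -0.32 and 0.24. The 17434 genes within 2-fold had a median of 0.00, and 32 of them (0.184%) were 2-fold lower. Across all 18417 genes the hypoxia difference and the dose difference had a Pearson's r of -0.51 and a Spearman's rho of -0.55 (r -0.57 over the brighter genes), which describes these 4 arrays, since genes are not independent replicates. Dimmer genes had a median of 0.23 in the DMSO pair and -0.19 in the pair compared. The part of the array distributions in these correlations was not tested.

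The whole difference between DMSO and 100 nmol/L in hypoxia can be divided at the array titled 1 nM. Against hypoxia with DMSO, 186 genes were at least 2-fold lower at 100 nmol/L (1.01% of all genes) and 141 at least 2-fold higher (0.766%). These genes were chosen on the 100 nmol/L array, which the comparison shares, so the shares are descriptions. The 127 brighter genes among the lower ones had a median of 61.3% of their log2 decrease on the array titled 1 nM, and 3.68% on the array titled 10 nM. In 33 of the 127 less than 50% had been reached on the array titled 1 nM, in 17 at least 80%, and 81 differed by less than 1.5-fold between the 2 arrays. The 27 HIF targets among the lower genes had a median of 50.5%, with 13 below 50% and 2 (TMEM45A and LOXL2) at 80% or above.

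Normoxia with DMSO served as a reference level. On the array titled 1 nM 12 of the 127 genes were at or below that level, and at 100 nmol/L 50 were. Within 1.5-fold of it were 64 on the array titled 1 nM and 101 at 100 nmol/L, against 13 on the array titled 10 nM. The median log2 distance above normoxia with DMSO was 0.58 for the array titled 1 nM and 0.09 at 100 nmol/L. For the 27 HIF targets the median distances were 1.15 and 0.17, with 6 within 1.5-fold of normoxia on the array titled 1 nM and 18 at 100 nmol/L. The HIF targets thus stood further above their normoxic level on the array titled 1 nM than the 127 genes did, with 1 array for each level. They also stood further above it on the array titled 10 nM, with medians of 2.17 against 1.46. Most of the 27 were themselves among the 127.

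**Figure D4:**
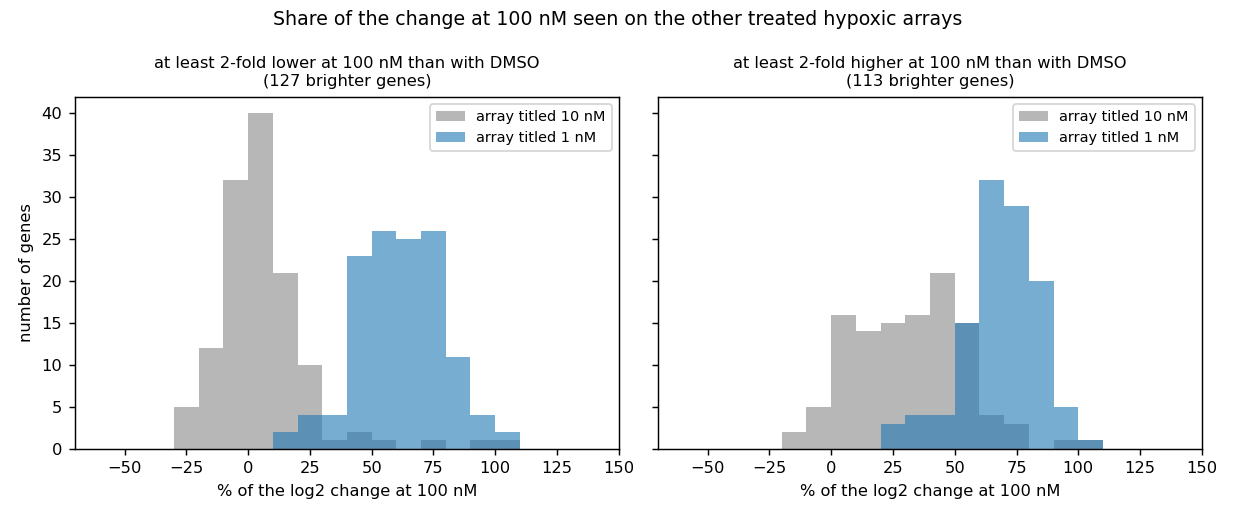
Share of the log2 change from hypoxic DMSO to 100 nmol/L (horizontal axis, percent) that was present on the array titled 1 nM (blue) and on the array titled 10 nM (grey), as numbers of brighter genes (vertical axis), for 127 lower genes at left and 113 higher genes at right. The medians on the array titled 1 nM are 61.3% and 69.6%, and those on the array titled 10 nM 3.68% and 33.0%.

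Increases between the 2 arrays were smaller. Of the 21 genes at least 2-fold higher at 100 nmol/L, 2 were brighter genes, CETN3, which encodes centrin, and PRDM16-DT, a divergent transcript. CETN3 was at 235 and 232 in normoxia and at 163, 239, 127 and 254 on the hypoxic arrays (DMSO, titled 10 nM, titled 1 nM, 100 nmol/L), a log2 difference of 1.00. PRDM16-DT was at 234 and 398 in normoxia and at 311, 268, 207 and 439 in hypoxia (1.08). Both had their lowest value of the 6 arrays on the array titled 1 nM, as did 12 of the 19 dimmer genes. These genes were chosen for a value there below that at 100 nmol/L, so a lowest value there partly follows from the choice.

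Genes of small nuclear and nucleolar RNAs, 215 measured, were a family picked after the values were seen. They supplied 7 of the 21 increases and 0 decreases, with a median of 0.14. The shares over all 18417 genes were 0.114% higher and 0.25% lower. All 7 were dimmer genes, whereas 122 of the 215 were brighter genes. RNU4-2, a U4 RNA of the spliceosome, was at 94.9 in normoxia with DMSO and 487 in normoxia with 100 nmol/L. In hypoxia it was at 54.0 with DMSO, 87.3 on the array titled 10 nM, 89.4 on the array titled 1 nM and 256 at 100 nmol/L, a log2 difference of 1.52. Its 2 highest values were thus those of the 100 nmol/L arrays. RNU4-1 was likewise highest on the 100 nmol/L arrays (3328 in normoxia and 1078 in hypoxia), with 581 on the array titled 1 nM (0.89), whereas RNU5D-1, a U5 RNA, was at 67.4 and 139 on the 2 arrays compared (1.04) and at 158 in normoxia with DMSO.

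The C/D box small nucleolar RNA genes were the 115 measured with the prefix SNORD. Many of their RNAs, though not all, guide methylation of ribosomal RNA. Past 2-fold upward were 3, all dimmer genes (SNORD38B, SNORD20 and SNORD115-4), against 0.114% of all genes. Above 0 lay 90, and the median was 0.22, or 0.13 with 32 added before log2. Of the 115, 66 were brighter genes. Over all 18417 genes 9451 lay above 0. From hypoxic DMSO to the array titled 1 nM 12 of the 115 were 2-fold higher (0.223% of all genes were), and the median of the 115 was 0.07. SNORD38B was at 61.4 on the array titled 1 nM and 133 at 100 nmol/L, and SNORD115-4, at 3.33 and 6.75, was at the bottom of the intensity range. SNORD14E, named after its values were seen, was higher mainly in the earlier step, from 130 with DMSO to 635 on the array titled 1 nM and 1151 at 100 nmol/L, with 153 on the array titled 10 nM. Of 61 H/ACA box genes 0 passed 2-fold, with a median of 0.08. Of 495 measured zinc finger genes, also picked after the values were seen, 3 were 2-fold higher (ZNF204P, ZNF814 and ZNF847P), against 0.114% of all genes, and these had their lowest value of the 6 arrays on the array titled 1 nM, at 16.0, 30.8 and 4.37. That array took part in choosing them.

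Ribosome biogenesis factors, low in hypoxia with DMSO (median log2 difference from normoxia -1.16), lay higher at 100 nmol/L in 34 of 36 measured genes, with a median of 0.16 (0.10 after quantile normalization) and 0 past 2-fold. The earlier step, from hypoxic DMSO to the array titled 1 nM, had a median of 0.60 with 5 genes 2-fold higher. All 36 were brighter genes, whose median from the array titled 1 nM to 100 nmol/L was 0.07. Over all 18417 genes 9451 lay above 0 in that step. UTP15 was at 1297 in normoxia with DMSO, and in hypoxia at 281 with DMSO, 457 on the array titled 10 nM, 572 on the array titled 1 nM and 808 at 100 nmol/L (0.50). MAK16 was at 1540 in normoxia with DMSO and at 307, 493, 757 and 969 on the hypoxic arrays (0.36). PPRC1, a coactivator of mitochondrial biogenesis, was at 1015 in normoxia with DMSO and at 222, 260, 632 and 797 in hypoxia (0.33).

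DKK1, a secreted WNT antagonist, was at 1057 and 3490 in normoxia and at 541, 727, 1722 and 3120 on the hypoxic arrays, a log2 difference of 0.86. TFRC, the transferrin receptor, was at 6222 and 6633 in normoxia and at 1028, 1056, 2405 and 3841 in hypoxia (0.68). DKK1 at 100 nmol/L was above normoxia with DMSO, whereas TFRC was below it on all hypoxic arrays. The 113 brighter genes at least 2-fold higher at 100 nmol/L than with DMSO had a median of 69.6% of their log2 increase on the array titled 1 nM and 33.0% on the array titled 10 nM, and 0 of them differed by 2-fold between the 2 arrays compared.

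**Figure D5:**
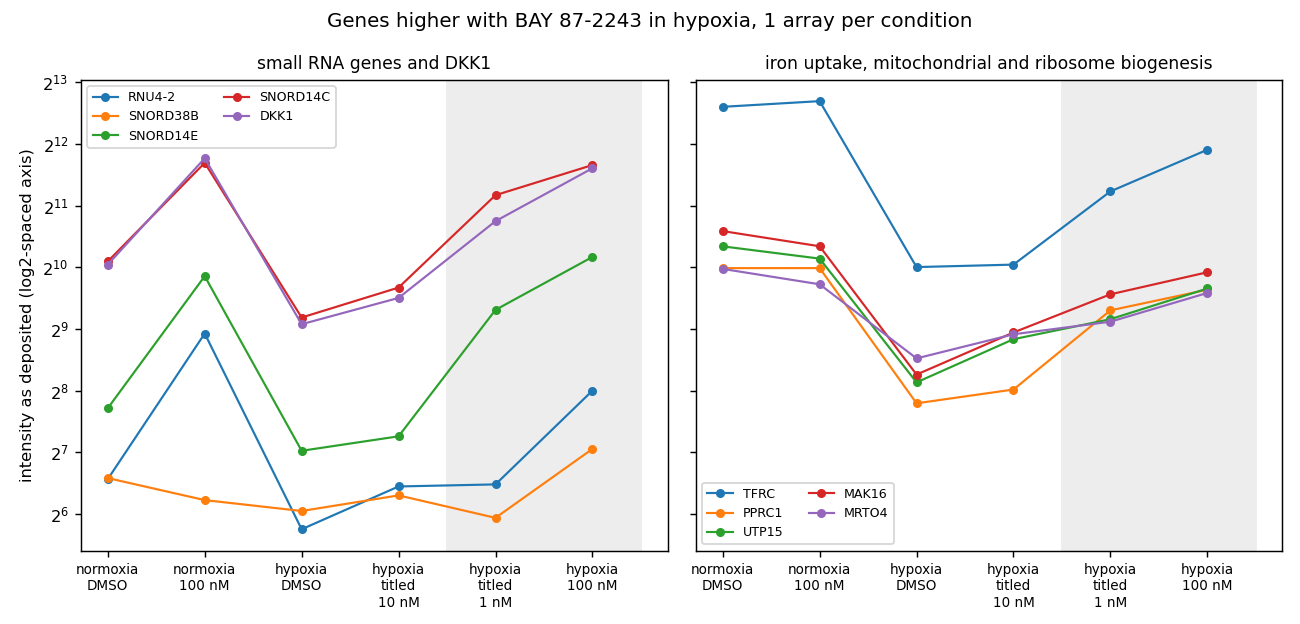
Deposited intensity (log2-spaced vertical axis) of 10 genes on the 6 arrays, 1 array per condition, with the 2 arrays compared shaded. Lines join the values of a gene and imply no order of dose. RNU4-2 is near 89.4 on the array titled 1 nM and 256 at 100 nmol/L, while TFRC, PPRC1, UTP15 and MAK16 lie higher on both shaded arrays than with DMSO in hypoxia.

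The respiratory chain, the site of the compound's action, differed little. Of 34 complex I subunits 27 lay above 0, with a median of 0.07, and 0 passed 2-fold. All 34 were brighter genes, and the median over all 11307 brighter genes was also 0.07. Of the 10496 brighter genes within 2-fold between the DMSO arrays, 7064 lay above 0. After quantile normalization 16 of the 34 lay above 0. NDUFB6 had the largest difference of them, at 421 and 596 (0.50). The 29 measured subunits of complexes II to V had a median of 0.06, and 0 passed 2-fold. Lists for the unfolded protein response, ATF4, NRF2 and p53 targets, sterol synthesis, proliferation, interferon, MondoA, MYC partners, immediate early genes, WNT feedback, mitochondrial biogenesis, iron handling and reference genes each had 0 genes past 2-fold, with medians from -0.10 to 0.13. The medians of the unfolded protein response, WNT feedback and iron handling lists took the opposite sign after quantile normalization. Of 12 ERK feedback genes 1, SPRY1, was 2-fold lower while 11 lay above 0, among them SPRY4 (1634 and 2147, a log2 difference of 0.39). After quantile normalization 7 of the 12 lay above 0. Of the immediate early genes IER3, a hypoxia-induced apoptosis regulator, was at 11314 with DMSO in hypoxia, 7597 on the array titled 1 nM and 4066 at 100 nmol/L (-0.90). ACTB differed by 0.07 and B2M by 0.10.

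The 28 dimmer genes past 2-fold in the downward direction had another pattern across the arrays. None of the 28 was 2-fold induced by hypoxia, and 22 had their highest value of the 6 arrays on the array titled 1 nM. The 4 brighter lower genes that were not 2-fold induced by hypoxia (MROH6, LHB, KRTAP10-7 and KRTAP5-4) were also highest on that array. All these genes were chosen for a value there above that at 100 nmol/L, so a highest value there partly follows from the choice. LHB, the beta subunit of luteinizing hormone, was at 300 and 372 in normoxia and at 490, 319, 549 and 253 in hypoxia, so that the 2 highest values were those of hypoxic DMSO and the array titled 1 nM. Olfactory receptor genes (361 measured, 5 lower) and keratin-associated protein genes (68 measured, 3 lower) were families picked after the values were seen. Of all genes 0.25% were lower, and of the 7110 dimmer genes 28 were, with a median of -0.19. Brighter genes made up 5 of the 361 and 27 of the 68. The medians of the 2 families at 100 nmol/L against the array titled 1 nM were -0.26 and -0.40 (-0.15 and -0.32 after quantile normalization). Their medians from hypoxic DMSO were close to these on the array titled 10 nM (-0.26 and -0.36) and close to 0 on the array titled 1 nM (0.01 and 0.00). These are the same pairs of arrays that differed in their quartiles, and the part of the array distributions in this was not tested.

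With the array titled 10 nM as the low-dose array in place of the one titled 1 nM, 147 genes were 2-fold lower at 100 nmol/L and 54 higher, 25 HIF targets were 2-fold lower and their median was -0.72. Of the 147 lower genes 18 were among the 46. Which of the 2 arrays had the smaller dose cannot be told from the labels, and in cultures measured in bulk a transcript level per cell and a share of cells with that transcript cannot be told apart.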

How the data were processed

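RNA of H460 cells was hybridized to 6 Affymetrix Human Gene 1.0 ST arrays, 1 per condition. The authors deposited linear intensity values per probe set. The methods describe background correction with MAS 5.0 and analysis in Expressionist, but in the submitters' processing notes the tool is RMA, with no version, so the summarisation is uncertain. The genome build behind the probe sets is not given in the sources used here. Of 33297 probe sets, 19460 had 1 symbol, 1754 several and 12083 were unnamed here. Of the 19460 probe sets, 19433 had a symbol that was current in RefSeq (GRCh38.p14), which also gave the upstream sequences. The brightest probe set, by mean log2 over the 6 arrays, stood for each of 18417 genes, of which 769 had several. Differences are of log2 intensity, with no pseudocount or filter, and counts use 2-fold. Genes were named by rule: the 14 largest decreases and 14 largest increases, the 10 lowest on the array titled 1 nM against hypoxic DMSO (each with the brighter array at or above its median), up to 4 members of each of 28 gene lists, and the genes in the paper's text. The members and lists were chosen with earlier results of these data known. The steps were tested on simulated data. The number of arrays limits the precision. Alternatives were quantile normalization, centring, brighter genes only, the mean of probe sets, 32 added before log2, the other low-dose array, and thresholds of 1.5-fold and 3-fold. Python 3.11.15, numpy 2.4.6, pandas 2.3.3 and matplotlib 3.10.9 were used.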

Additional observations from a re-analysis of the deposited data

How the results depend on the processing

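Against 46 lower and 21 higher genes in the deposited values, centring each array on its median gave 31 and 32, quantile normalization 37 and 29, brighter genes only 18 and 2, and 32 added before log2 17 and 1. Centring within bins of intensity, chosen after seeing the data, gave 30 and 40, so that lower genes were 42.9% of those past 2-fold. Thresholds of 1.5-fold and 3-fold gave 564 and 3 lower genes, 217 and 1 higher genes, 18 and 3 lower HIF targets (10 at 2-fold), and 147 and 3 genes both induced by hypoxia and lower, with the same threshold for both (14 at 2-fold). With the array titled 10 nM as the low-dose array there were 147 lower and 54 higher genes, 25 lower HIF targets with a median of -0.72, 100 genes induced by hypoxia and lower, and a median of 6.89% of the log2 decrease reached, against 60.1%. The cause of these shifts was not tested. Under quantile normalization and centring, brighter genes only, the mean of probe sets and 32 added before log2, the lower HIF targets numbered 8 to 11 and the genes induced by hypoxia and lower 11 to 15. Of 23 named genes past 2-fold, 22 stayed past it under quantile normalization and under centring, and 16 with 32 added before log2. No paired analysis was possible because each condition had 1 array, and for the same reason no replicate could be left out.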
